A study of Mus musculus with 3 samples.

Results

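Rag1, Rag2, Dntt, Vpreb1, Vpreb3, Igll1, Pax5 and Ebf1 are 8 genes that mark the precursors of B cells, and they are described here in brainstem of mice with and without a diffuse midline glioma. They were taken by symbol from the 32285 features counted in each library, and all 8 were found. They were chosen by their summed counts, which were higher in the normal library than in the tumour libraries, so that contrast is given as a description: the fit over all genes is printed below with its background, and nothing is read from its calls on these 8. Single-cell RNA sequencing of 3′ ends was run on dissociated brainstem of B6(Cg)-Tyrc-2J/J mice, an albino strain on the C57BL/6 background. For the tumour group, 100000 cells of DIPG4423, a murine diffuse midline glioma line, had been placed in the brain of 6-week-old animals, and tissue was taken 3 weeks later without treatment. This group holds 2 libraries, called tumour 1 and tumour 2 here. The normal group is a single library from brainstem without tumour, for which the labels give no age. Every tumour library rests on the same line, the number of animals behind each library is not stated, and with 1 normal library there is no spread between normal samples.

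B cells are built in the bone marrow from progenitors that cut and rejoin the segments of their antibody genes. RAG1 and RAG2 together form the nuclease that makes the cuts, and terminal transferase (Dntt) adds untemplated bases at the joints while the heavy chain is made. The new heavy chain is first tested with a surrogate light chain, made of the products of Vpreb1 and Igll1, and a burst of division follows. The recombinase then returns to rearrange a light chain gene. EBF1 and PAX5 are the transcription factors that start and fix the B cell programme, and they remain in use in mature B cells. In adult mice this sequence is best known from bone marrow, and B cell precursors have also been described in the dura around the brain.

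The 8 genes include 2 pairs of close neighbours, and promoters are shown for the 4 genes with a match to a motif of B cell factors before their only listed start. Rag1 (chromosome 2, 101638282 to 101649501, minus strand) and Rag2 (101624718 to 101632529, plus strand) lie 5752 bases apart in GRCm38. Vpreb1 (chromosome 16, 16868403 to 16870843, minus strand) and Igll1 (16860671 to 16863985, minus strand) lie 4417 bases apart. Dntt is on chromosome 19 (41029275 to 41059525), Vpreb3 on chromosome 10 (75943057 to 75949657), Pax5 on chromosome 4 (44524757 to 44710487) and Ebf1 on chromosome 11 (44617317 to 45008091). All are protein-coding in GENCODE mouse release 21, the source of these spans. For Vpreb1 and Vpreb3 the RefSeq start used below, and the window before it, lie inside the GENCODE span. The sources thus differ in where these genes start. The lines that follow give the 250 bases before the start of transcription from RefSeq (GRCm38.p6), each 5′ to 3′ on the strand of its gene, with motif matches in capitals.
Rag1 (chr2:101649533-101649782, minus strand): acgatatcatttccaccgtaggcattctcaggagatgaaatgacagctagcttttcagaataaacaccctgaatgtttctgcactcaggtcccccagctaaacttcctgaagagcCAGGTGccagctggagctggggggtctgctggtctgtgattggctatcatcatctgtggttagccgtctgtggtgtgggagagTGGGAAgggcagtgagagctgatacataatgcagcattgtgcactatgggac
Vpreb1 (chr16:16869256-16869505, minus strand): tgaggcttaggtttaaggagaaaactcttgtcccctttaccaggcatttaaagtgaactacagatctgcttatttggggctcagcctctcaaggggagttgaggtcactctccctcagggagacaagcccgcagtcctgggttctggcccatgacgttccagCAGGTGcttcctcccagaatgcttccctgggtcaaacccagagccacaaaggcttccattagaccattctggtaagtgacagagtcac
Vpreb3 (chr10:75948050-75948299, plus strand): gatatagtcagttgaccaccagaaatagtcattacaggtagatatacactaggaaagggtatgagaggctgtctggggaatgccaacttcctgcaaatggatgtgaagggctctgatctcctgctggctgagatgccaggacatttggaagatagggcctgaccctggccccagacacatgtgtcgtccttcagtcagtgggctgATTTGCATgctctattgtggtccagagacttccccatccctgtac
Igll1 (chr16:16863986-16864235, minus strand): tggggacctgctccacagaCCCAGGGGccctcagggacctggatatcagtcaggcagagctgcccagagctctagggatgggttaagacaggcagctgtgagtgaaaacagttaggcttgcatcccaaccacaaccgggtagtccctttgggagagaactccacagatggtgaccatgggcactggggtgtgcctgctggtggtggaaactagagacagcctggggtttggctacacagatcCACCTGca

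Capitals mark exact matches, on either strand, to 4 motifs. The E-box CAGGTG, the kind bound by the product of Tcf3, lies in the windows of Rag1, Vpreb1 and Igll1, and in 17.1% of the 27025 promoter windows of this length. In the Igll1 window it is written CACCTG because it lies on the opposite strand. The Ikaros core TGGGAA lies in the Rag1 window and in 21.5% of all windows, and in the window of the second of 2 starts listed for Ebf1. The EBF core CCCNNGGG lies in the Igll1 window and in 11.7% of all windows. The octamer ATTTGCAT, known from immunoglobulin promoters, lies in the Vpreb3 window, from 45 to 38 bases before the start, and in 1.61% of all windows. No match to the 4 motifs was present in these letters for Rag2, Dntt or Pax5. Matches are descriptions of sequence and were not tested as binding sites.

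The libraries differed in depth and in content, and both differences touch the values that follow. They held 151906460 UMIs in tumour 1, 157114723 in tumour 2 and 15035292 in normal; a UMI is 1 captured RNA molecule. After filtering and removal of doublets, 10551, 9391 and 3079 cells remained, with median depths of 8791, 11284 and 2394 UMIs. Pairs of libraries shared 13 to 37 barcodes, at most 0.368% of either library. The normal suspension also carried cell lineages usual in marrow: granulocyte precursor-like cells made up 7.57% of its cells, against 0.0948% in tumour 1 and 0.447% in tumour 2. Summed over 20 genes of such lineages, the level was 15081 CPM in normal (counts scaled to the same total in every library or group of cells), 223 in tumour 1 and 327 in tumour 2, with 1 of the 20 genes at 0 in tumour 1 and none at 0 in the other libraries. One of these genes, Prg2 (eosinophil granules), stood at 176 CPM in normal and at 0.0142 and 0.00687 CPM in the tumour libraries. Bglap, which encodes the osteoblast product osteocalcin and was picked after its values were seen, stood at 70.1 CPM in the normal library, against 0.107 and 0.0275 CPM in the tumour pair. The part of these other lineages in the results below was not tested, and tumour and library cannot be told apart with a single normal library.

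In sums over all kept cells, each of the 8 genes was higher in normal than in either tumour library. Rag1 was read 224 times in normal (20.3 CPM), 13 times in tumour 1 (0.0925 CPM) and 8 times in tumour 2 (0.0549 CPM). Rag2 gave 49, 1 and 4 UMIs, and Dntt gave 141, 1 and 21 UMIs, in the same order. Both tumour libraries therefore lay far below normal for the recombinase pair, while for Dntt they lay apart from each other as well.
Vpreb1 gave 210 UMIs in normal, 18 in tumour 1 and 43 in tumour 2. Igll1 gave 175, 1 and 2 UMIs. Vpreb3, a relative of Vpreb1 that binds new immunoglobulin chains, gave 1303, 13 and 150 UMIs. Of the 3 genes of the surrogate light chain family, Igll1 had the lowest tumour counts. Pax5 gave 302, 33 and 147 UMIs. Ebf1 was the exception in abundance, with 4144 UMIs in normal (375 CPM), 10767 in tumour 1 (76.6 CPM) and 10334 in tumour 2 (71.0 CPM).

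As a ratio of CPM, the level in normal over that in both tumour libraries pooled was 276 for Rag1 (95% interval 176 to 455), 254 for Rag2 (102 to 816) and 166 for Dntt (105 to 273). It was 89.1 for Vpreb1 (66.7 to 121), 207 for Vpreb3 (176 to 245), 43.4 for Pax5 (36.0 to 52.5) and 5.09 for Ebf1 (4.92 to 5.26). For Igll1 the ratio was 1511, with an interval of 508 to 7396 that reflects only 3 tumour UMIs. These and all later intervals are exact and cover counting error only. The pooled ratios leave out the difference between the tumour libraries. Vpreb3 stood at 0.0925 CPM in tumour 1 and 1.03 in tumour 2, against 118 in normal. Pax5 stood at 0.235 and 1.01 CPM, against 27.3. For these genes the ratio of each tumour library alone lies outside the pooled interval. Rag1 and Ebf1 were instead higher in tumour 1 than in tumour 2. Across the whole table, edgeR's quasi-likelihood test at an adjusted p of 0.05 called 1664 of 20467 genes lower in tumour (8.13%) and 2607 higher (12.7%). All 8 genes passed the filter on low counts, some through the normal library alone, and 8 of 8 were called lower; because this contrast chose them, nothing is read from that count. On the log2 scale their changes, tumour minus normal, ran from -9.84 ± 0.72 (SE) for Igll1 to -1.79 ± 0.26 for Ebf1, against a median of 0.14 over all genes. With library size as the only scaling, 1631 genes were called higher and 3689 lower, so that the share of calls that were higher fell to 30.7% from 61.0%, and the median change of all genes was -0.41. In a sum over a library, fewer cells of a type and less RNA per cell cannot be told apart, so the genes were next followed cell by cell.

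A single cluster of 339 cells carried all 9 markers of B cells, among them Cd79a, Cd79b, Ms4a1, Ighm, Igkc and Cd22, and is called B-like. It was found with the 8 genes left out of the clustering. It held 223 of 3079 normal cells (7.24%, interval 6.35 to 8.22%), 20 of 10551 cells in tumour 1 (0.190%, 0.116 to 0.293%) and 96 of 9391 cells in tumour 2 (1.02%, 0.829 to 1.25%). Median depth was 1575 UMIs in normal B-like cells, 2073 in tumour 1 and 3024 in tumour 2, so the normal cells were the shallowest. Requiring 2 B cell genes in a cell in place of the cluster gave 12.0%, 8.08% and 25.9% for normal, tumour 1 and tumour 2, and this reversed the order of normal and tumour 2; some of those genes, such as Blnk and Ighm, are read outside the B lineage too.

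**Figure D1:**
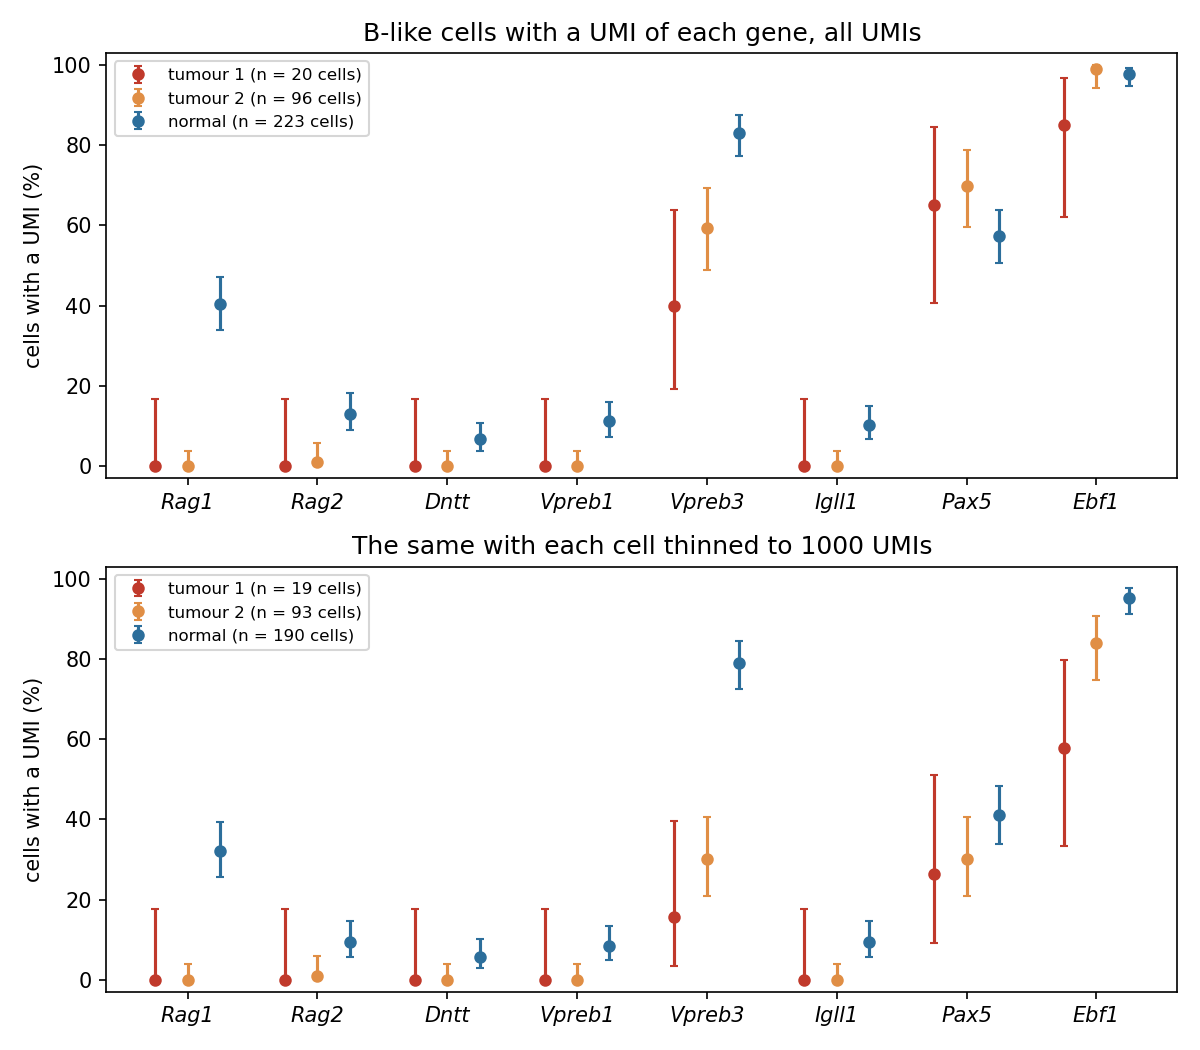
Percent of B-like cells with at least 1 UMI of each gene (vertical axis) in tumour 1, tumour 2 and normal, with all UMIs (top) and with every cell thinned to 1000 UMIs (bottom); bars are exact 95% intervals for counting error. Rag1, Dntt, Vpreb1 and Igll1 are at 0 in both tumour libraries, while Vpreb3, Pax5 and Ebf1 are read in all 3.

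The recombination genes were read in normal B-like cells and almost nowhere in the tumour ones. Rag1 was found in 90 of 223 normal cells (40.4%), with up to 12 UMIs in a cell, and in none of 20 and none of 96 tumour cells. For the 116 tumour cells together, a count of 0, read as at most 3 counts, allows up to 2.59% of cells with a UMI, which limits detection and not expression. Rag2 was found in 29 of the 223 normal cells (interval 8.88 to 18.1%) and in 1 cell of tumour 2, with 1 UMI. That cell also held Il7r, Cd93 and Igkc and no Ighd. It lay in the sub-cluster called mature-like below and had 6144 UMIs, against a median of 3024 in B-like cells of tumour 2. In microglia-like cells of tumour 2, Il7r was read in 10.6% and Cd93 in 7.03%. Dntt was found in 15 normal cells (6.73%), with up to 25 UMIs in a cell, and in no tumour cell. Microglia-like cells, which should lack these genes, had a similar depth in normal (median 1647 UMIs): 1 of 723 held Rag1 (0.138%) and none held Rag2 or Dntt, which allows up to 0.415%. The shares in normal B-like cells thus stood well above those in microglia-like cells of the same suspension.

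The genes of the surrogate light chain split into a restricted pair and a widely read relative. Vpreb1 was found in 25 normal B-like cells (11.2%) and Igll1 in 23 (10.3%), and neither in any tumour B-like cell or in any of the 723 normal microglia-like cells. Vpreb3 was found in 185 normal cells (83.0%), in 8 of 20 cells of tumour 1 (40.0%) and in 57 of 96 of tumour 2 (59.4%), at levels of 2466, 156 and 441 CPM within B-like cells. In microglia-like cells its share was at most 0.415% in any library. Vpreb1 is nearly identical to Vpreb2, elsewhere on chromosome 16: their longest transcripts differ at 17 of 686 aligned bases (97.5% identical), against 70.6% identity between Vpreb1 and Vpreb3. How reads that fit both genes were counted was not checked, so Vpreb1 values are uncertain to that extent. Vpreb2 itself was read in 13 normal B-like cells (5.83%) and in none of the tumour ones.

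Pax5 and Ebf1 were present in B-like cells of every library. Pax5 was found in 57.4% of normal B-like cells, 65.0% in tumour 1 and 69.8% in tumour 2. Its level was 544, 430 and 401 CPM in the same order. The interval of that level in tumour 1 overlapped those of normal and tumour 2. The intervals of normal and tumour 2 narrowly did not meet. Thinned to 1000 UMIs a cell, the shares became 41.1%, 26.3% and 30.1%. The interval of the normal share (34.0 to 48.4%) then overlapped that of tumour 1 (9.15 to 51.2%) and also that of tumour 2. No order is read from the shares, thinned or not. Ebf1 was found in 218 of 223 normal cells (97.8%), 17 of 20 cells in tumour 1 (85.0%) and 95 of 96 in tumour 2 (99.0%). Its level within B-like cells was 5596 CPM in normal, 801 in tumour 1 and 1909 in tumour 2, and up to 85 UMIs were read in a cell. Shares of Ebf1 after thinning were 95.3%, 57.9% and 83.9%. Ebf1 was therefore read in most cells of the cluster in each library, and its level within the cluster differed between libraries. That level mixes the sub-clusters described below, whose shares also differed between libraries. In the mature-like sub-cluster alone it was 2888 CPM in normal, 801 in tumour 1 and 1903 in tumour 2. The part of the mix in the difference was not tested.
Thinning left out 33 normal cells, 1 cell of tumour 1 and 3 of tumour 2. At 1000 UMIs a cell, Rag1 remained in 32.1% of normal cells, Rag2 in 9.47%, Dntt in 5.79%, Vpreb1 in 8.42%, Igll1 in 9.47% and Vpreb3 in 78.9%. In the 112 tumour cells that could be thinned, Rag2 was held by 1 cell and Rag1, Dntt, Vpreb1 and Igll1 by none. Vpreb3 was held by 15.8% in tumour 1 and 30.1% in tumour 2.

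B-like cells were then divided into 5 sub-clusters without use of the 8 genes, Vpreb2 or immunoglobulin variable, diversity and joining segments. Sub-cluster 0 (137 cells) is called mature-like: it was led by Ptpn22, H2-Eb1, Hmox1, Apoe and H2-Aa, and all 9 markers of immature or mature B cells were detected. Hmox1 and Apoe among its leading genes are a stress gene and a gene of microglia and astrocytes. It held all 20 B-like cells of tumour 1, 94 of 96 of tumour 2 (97.9%) and 23 of 223 of normal (10.3%). Sub-clusters 1 (102 cells, 101 of them normal) and 4 (10 cells, all normal) are called precursor-like from markers such as Il7r, Cd93, Sox4, Myb and Lef1. Of these, 7 and 10 out of 10 were detected, but so were 6 in sub-cluster 2 and 9 in sub-cluster 3. The name thus rests on the precursor score, a mean log2 ratio of the markers to their mean over sub-clusters. For sub-cluster 1 this score was only just positive (0.075). Its plasma cell score was higher (0.41) but rested on 2 detected markers, under the minimum of 3 for a name. Il2ra was among the leading genes of sub-cluster 1. Sub-cluster 4 was led by Tnfsf10 and Mmrn1. Sub-cluster 3 (33 cells, all normal) is called cycling, led by Pclaf, Top2a and Mki67. Sub-cluster 2 (57 cells, 56 of them normal) reached no name and was led by Il4i1, Ifi30 and Ms4a1. In it 8 of the 9 markers of immature or mature B cells were detected. Its mature score (-0.0076) fell just short of the positive value needed for a name, and its precursor score was -2.05. The normal share of mature-like cells therefore depends on how these cells are named. In these sub-clusters, 144 of 223 normal B-like cells were precursor-like or cycling, against 1 of 116 in tumour. That contrast depends on the cell filter and on the gate. With the stricter cell filter, 12 of 171 normal cells were precursor, with 1 of 19 in tumour 1 and 6 of 93 in tumour 2, while 115 normal cells reached no name; cycling cells were then 28 in normal and none in tumour. With the gate of 2 B cell genes, 30 of 370 normal cells were called cycling, against 102 of 852 in tumour 1 and 210 of 2436 in tumour 2. With the stricter cell filter, any of Rag1, Rag2, Dntt, Vpreb1 and Igll1 was still read in 0 of 19 B-like cells of tumour 1 and 1 of 93 of tumour 2, so at most 1 of the tumour cells called precursor there held any of the 5 genes.

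**Figure D2:**
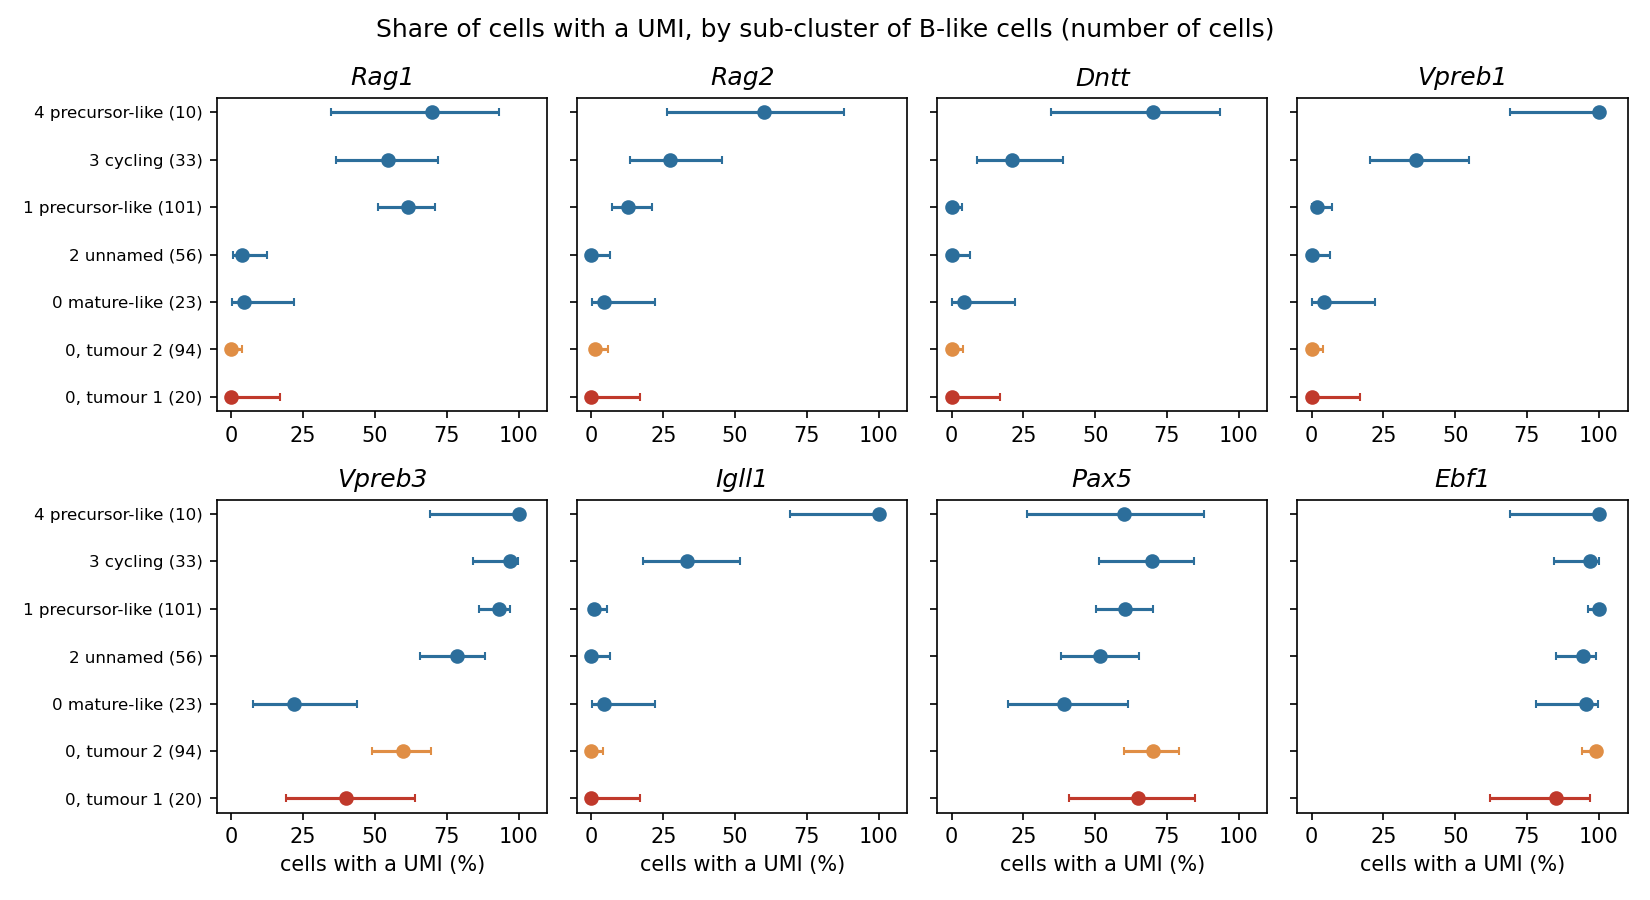
Percent of cells with at least 1 UMI (horizontal axis) for each gene in the sub-clusters of B-like cells, with the number of cells in brackets; blue is normal, orange tumour 2 and red tumour 1, and bars are exact 95% intervals for counting error. Vpreb1 and Igll1 go from all 10 cells of sub-cluster 4 to 1 or 2 of 101 cells of sub-cluster 1, while Rag1 stays above 50% in both.

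The 8 genes differed in which normal sub-clusters held them. In the 10 cells of sub-cluster 4, Vpreb1, Igll1, Vpreb3 and Ebf1 were each found in 10 cells, Rag1 and Dntt in 7, and Rag2 and Pax5 in 6. Vpreb1 stood at 2086 CPM there, Igll1 at 1701, Dntt at 802, Rag1 at 545 and Rag2 at 257. Lef1 was read in 90.0% of these cells, Il7r in 60.0%, Igkc in 10.0% and Ighd in none. These cells therefore held the heavy chain stage set, surrogate light chain and terminal transferase included, with little light chain RNA.
Among the 33 cycling cells, Vpreb1 was found in 12 (36.4%), Igll1 in 11 (33.3%) and Dntt in 7 (21.2%). Rag1 was found in 18 (54.5%) but at 215 CPM, and Rag2 in 9 (27.3%) at 94.5 CPM. Median depth there was 5350 UMIs, against 1356 in sub-cluster 1, so the shares are not set side by side without the levels. Il7r was read in 90.9% of cycling cells and Igkc in 60.6%.
In the 101 normal cells of sub-cluster 1, Rag1 was found in 62 (61.4%) and reached 973 CPM, its highest level of the 5 sub-clusters. Rag2 was found in 13 (12.9%, 123 CPM), Vpreb1 in 2, Igll1 in 1 and Dntt in none, which allows up to 2.97%. Vpreb3 was found in 94 (93.1%, 4015 CPM) and Ebf1 in all 101 (8251 CPM). Igkc was read in 76.2% of these cells and Il2ra, a marker of resting pre-B cells, in 29.7%. Recombinase RNA was thus read here with light chain RNA and almost without Vpreb1, Igll1 or Dntt.

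The remaining normal cells held little of the restricted genes. In the 56 normal cells of sub-cluster 2, Rag1 was found in 2 (3.57%) and Rag2, Dntt, Vpreb1 and Igll1 in none, while Vpreb3 was found in 44 (78.6%, 2057 CPM). In the 23 normal mature-like cells, Rag1, Rag2, Dntt, Vpreb1 and Igll1 were all found in 1 and the same cell, which carried all 8 genes; without it, none of 22 cells held any of the 5 genes. Vpreb3 was found in 5 of the 23 (21.7%), Pax5 in 9 (39.1%) and Ebf1 in 22 (95.7%, 2888 CPM). That single cell held 16 of the 23 Vpreb3 UMIs of the group and 34 of its 133 Ebf1 UMIs.
The mature-like cells were the only stage with enough cells in normal and tumour to set side by side. In the tumour libraries Vpreb3 was found in 40.0% (tumour 1) and 59.6% (tumour 2) of these cells, at 156 CPM (interval 67.5 to 308) and 435 CPM (363 to 516). In normal it stood at 500 CPM (317 to 750), and at 176 CPM (70.8 to 363) without the cell that carried all 8 genes, so its order against tumour 2 rests on that cell. Pax5 stood at 304 CPM in the normal mature-like cells (327 without that cell), 430 in tumour 1 and 404 in tumour 2, with overlapping intervals. Ebf1 stood at 2888 CPM in normal (2418 to 3423), 1903 in tumour 2 (1749 to 2067) and 801 in tumour 1 (575 to 1087). Without that cell Ebf1 in normal was 2491 CPM (2024 to 3032), and its interval then overlapped that of tumour 2 and not that of tumour 1. Thinned to 1000 UMIs, the shares of mature-like cells with Vpreb3 were 16.7% in normal, 15.8% in tumour 1 and 29.3% in tumour 2, with overlapping intervals. The intervals of the tumour libraries did not meet for Ebf1 or, narrowly, for Vpreb3; they leave out the spread between cells, and the thinned Vpreb3 shares overlapped.
The normal values also depend on which cells are called mature-like. With clustering at resolution 2.0, 79 normal cells were mature-like in place of 23, and none was left unnamed. Vpreb3 then stood at 1339 CPM in normal (1150 to 1551) against 442 in tumour 2 (370 to 524), and at 1280 CPM in normal without the cell that carried all 8 genes. Ebf1 then stood at 3612 CPM in normal against 1901 in tumour 2. With stages set by a gate on each cell, 73 normal cells were mature, and Vpreb3 stood at 2293 CPM, Pax5 at 749 (606 to 915) and Ebf1 at 5799 in them. With the stricter cell filter, 16 normal cells remained and Vpreb3 stood at 225 CPM (82.4 to 489), with 208 in tumour 1 (89.8 to 410) and 399 in tumour 2 (328 to 482). No order of the libraries is therefore read for Vpreb3 or Pax5 in mature-like cells. The Ebf1 value was higher in normal than in either tumour library in each of these settings. In the reported sub-clusters its normal interval overlapped that of tumour 2 once the cell with all 8 genes was left out. Only its order against tumour 1 is therefore read.

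Any of Rag1, Rag2, Dntt, Vpreb1 and Igll1 was found in 67.6% of the 111 normal precursor-like cells (interval 58.0 to 76.1%), 78.8% of the 33 cycling cells and 4.35% of the 23 mature-like cells. When stages were set by a gate on each cell in place of sub-clusters, the values were 45.6% of 114 non-cycling precursor cells and 34.2% of 73 mature cells: the separation of precursor and mature cells depends on the sub-clusters. With at least 2 UMIs of a gene required, 44.1% of precursor-like and 45.5% of cycling cells were left.

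**Figure D3:**
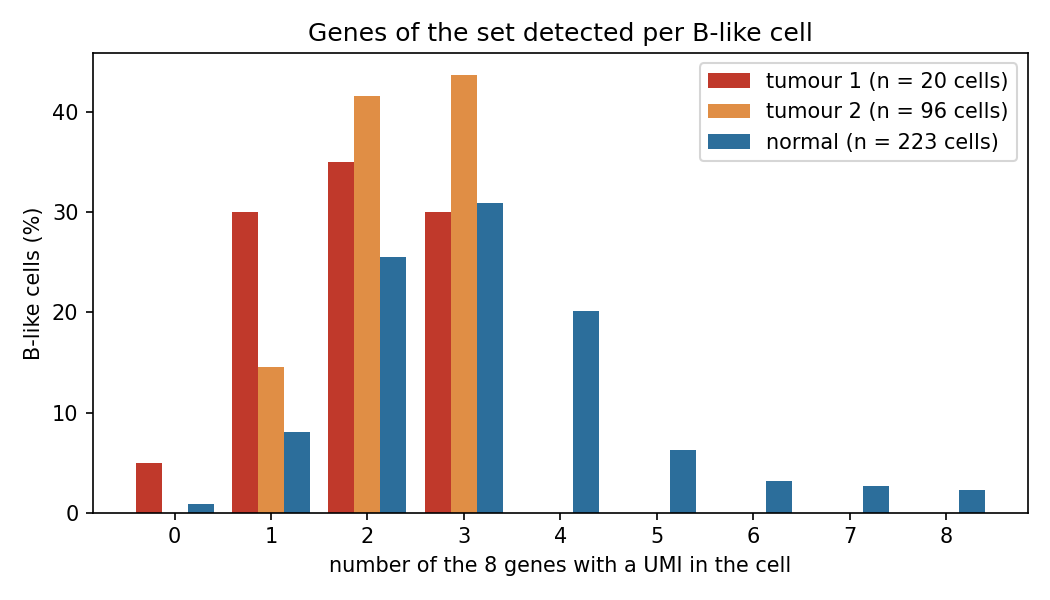
Percent of B-like cells (vertical axis) by how many of the 8 genes had a UMI in the cell (horizontal axis), in tumour 1 (20 cells), tumour 2 (96 cells) and normal (223 cells). Tumour cells hold 0 to 3 of the genes and normal cells 0 to 8.

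Per cell, the median number of the 8 genes detected was 3 in normal and 2 in each tumour library. The highest was 8 in normal, in 5 cells, and 3 in both tumour libraries. At least 1 of Rag1, Rag2, Dntt, Vpreb1 and Igll1 was found in 104 of 223 normal cells (46.6%), 0 of 20 in tumour 1 and 1 of 96 in tumour 2. At least 2 of them were found in 36 normal cells (16.1%, interval 11.6 to 21.6%), all 5 in 8 normal cells, and 2 or more in no tumour cell, which allows up to 15.0% in tumour 1 and 3.12% in tumour 2. The tumour 1 limit is loose because that library has only 20 such cells.

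**Figure D4:**
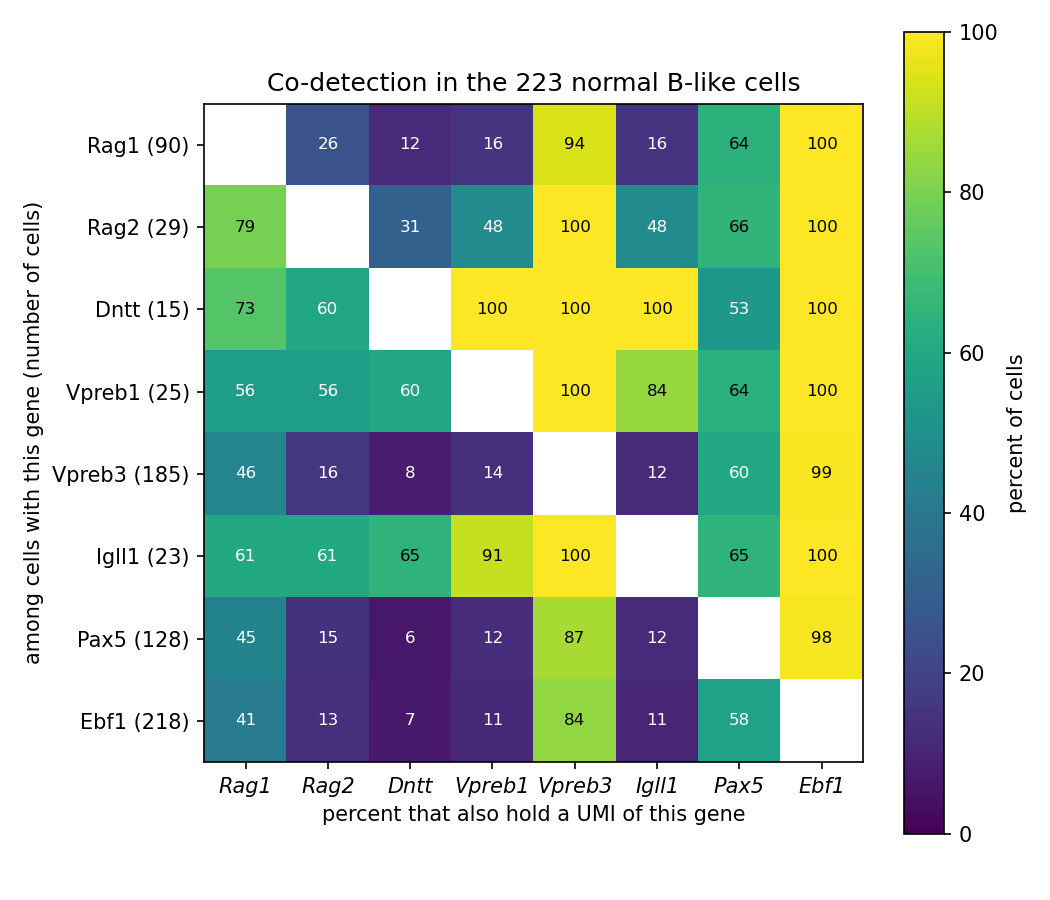
Percent of normal B-like cells with the gene of the row (number of cells in brackets) that also hold a UMI of the gene of the column. All 15 Dntt cells hold Vpreb1 and Igll1, while 16% of the 90 Rag1 cells hold Vpreb1.

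Cells with Dntt lay within those with Vpreb1 and Igll1, while the other pairs of restricted genes overlapped only in part. All 15 cells with Dntt also held Vpreb1, Igll1, Vpreb3 and Ebf1, and 11 of them held Rag1 and 9 held Rag2. Vpreb1 and Igll1 occurred together in 21 cells, which is 84.0% of the Vpreb1 cells and 91.3% of the Igll1 cells. Rag1 and Rag2 occurred together in 23 cells, 79.3% of the Rag2 cells and 25.6% of the Rag1 cells. Vpreb1 and Igll1 were thus mostly read in the same cells, while Rag1 was read in many cells where Rag2 was not. In normal B-like cells Rag2 had 46 UMIs and Rag1 had 216. Dntt, on another chromosome, shared its cells with Vpreb1 and Igll1 too, so nothing is read from the adjacency of genes.
Of the 90 Rag1 cells, 85 held Vpreb3 (94.4%) and all held Ebf1, but only 14 held Vpreb1 (15.6%) and 14 held Igll1. Pax5 was read in 58 of them (64.4%) and in 8 of the 15 Dntt cells (53.3%).

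These combinations went with other B cell genes. The 27 normal cells with Vpreb1 or Igll1 had a median of 5597 UMIs: 15 of them held the division genes Mki67 or Top2a (55.6%), 23 held Cd93 (85.2%), 8 held Igkc (29.6%) and 1 held Il2ra. The 77 normal cells with Rag1 or Rag2 and neither Vpreb1 nor Igll1 had a median of 1503 UMIs: 12 held Mki67 or Top2a (15.6%), 58 held Igkc (75.3%), 70 held any light chain constant gene (90.9%) and 24 held Il2ra (31.2%). Igkc was therefore more often read in the shallower set. Of the 15 Dntt cells, none held Igkc and 1 held any light chain constant gene, while 13 held Il7r and 13 Cd93. In normal microglia-like cells the share with Igkc was 0.277%, with Cd93 0.138% and with Il2ra 0, whereas Il7r was read in 23.5% and Ighm in 32.5% of them. Il7r and Ighm were therefore not restricted to B-like cells in this suspension.

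In normal, each of the 8 genes was read mostly in B-like cells, from 68.8% of UMIs for Ebf1 and 76.6% for Dntt to 96.4% for Rag1 and Vpreb3. In the tumour libraries most UMIs of Vpreb3 (61.5% and 88.7%) and Pax5 (66.7% and 82.3%) lay in B-like cells, but those of the other 6 genes lay mostly elsewhere. In normal, 714 of 799 UMIs of Rag1, Rag2, Dntt, Vpreb1 and Igll1 lay in B-like cells (89.4%). In the tumour libraries 0 of 34 and 1 of 78 did. All 13 Rag1 UMIs of tumour 1 and all 8 of tumour 2 lay in glial progenitor-like cells, 1 to a cell, at 0.131 and 0.122 CPM; this class is led by glial progenitor markers and has the largest cell number in tumour 1, 4363, with 2094 in tumour 2. The cells with a UMI were 0.298% and 0.382% of the class, at median depths of 15841 and 21797 UMIs.

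**Figure D5:**
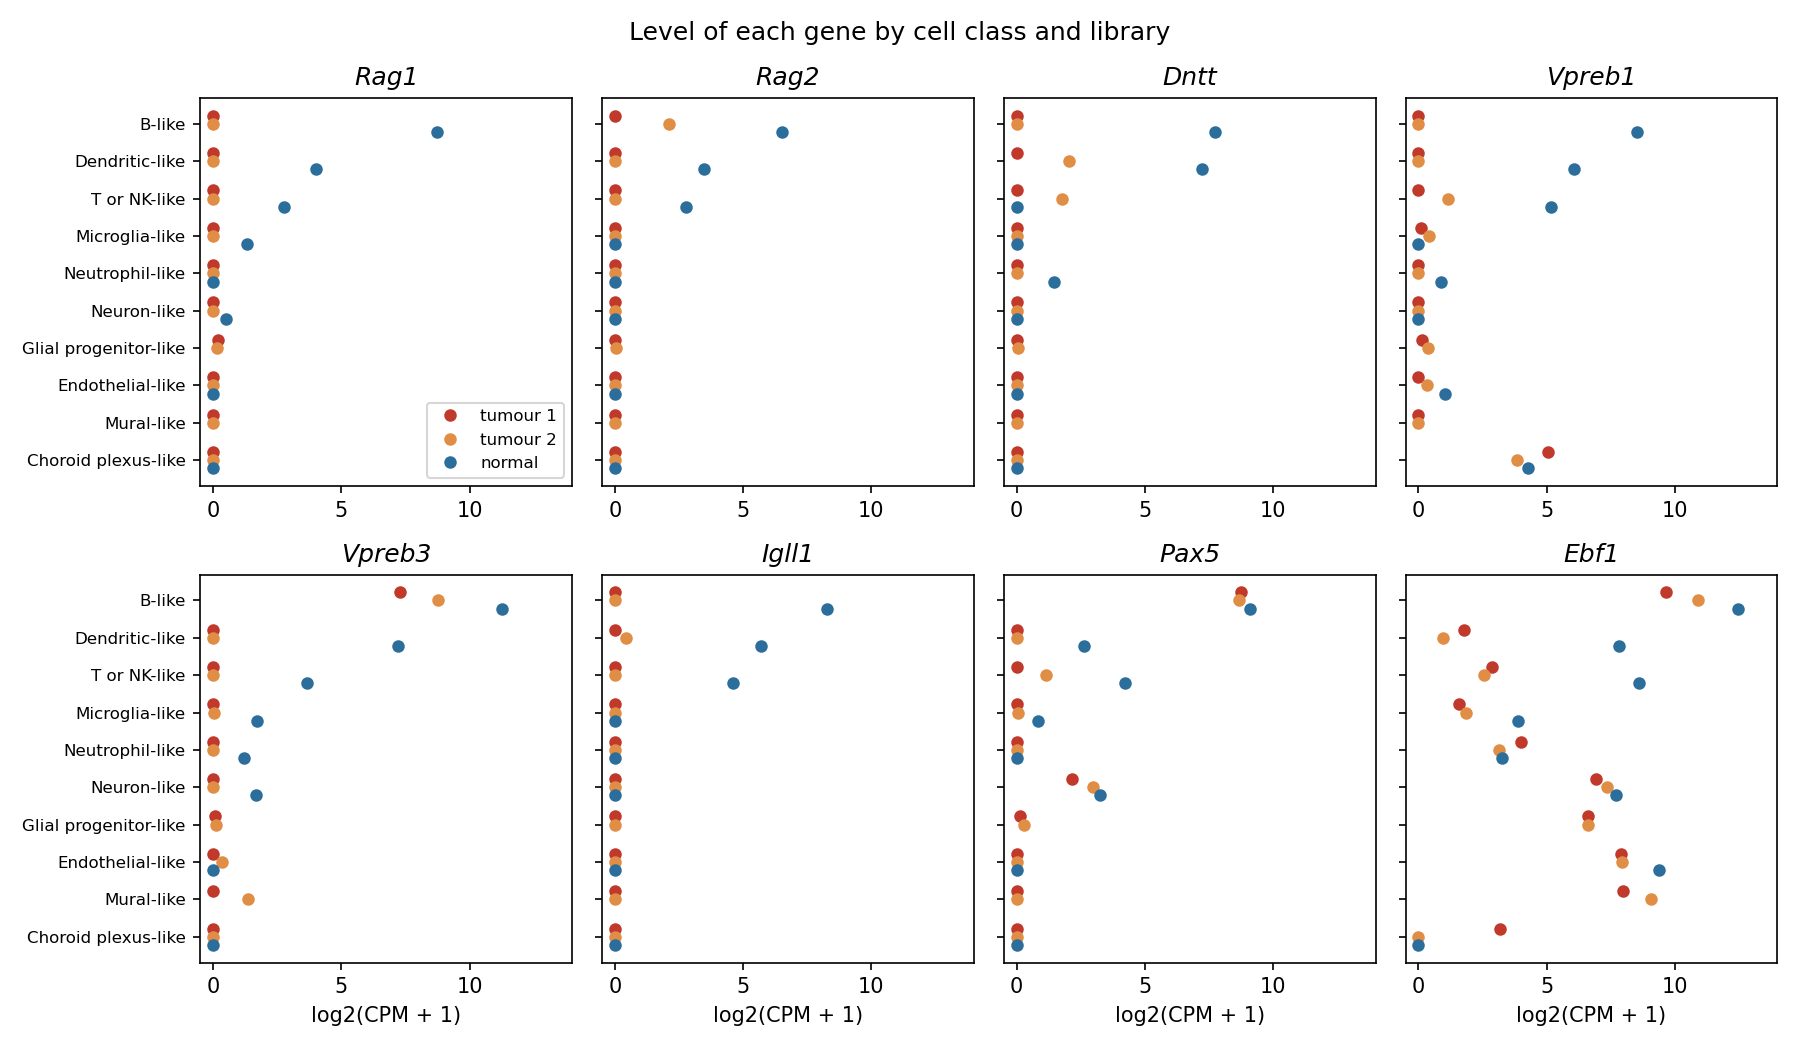
Level of each gene as log2(CPM + 1) (horizontal axis) in the summed counts of selected cell classes with at least 20 cells in a library, by library. The 5 genes Rag1, Rag2, Dntt, Vpreb1 and Igll1 reach their highest level in normal B-like cells, while Ebf1 is spread over vessel, mural, neuron-like and glial classes.

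Ebf1 was read widely. In endothelial-like cells it stood at 660 CPM in normal, 240 in tumour 1 and 247 in tumour 2, and in mural-like cells at 250 and 537 CPM in tumour 1 and tumour 2. Neuron-like cells held 208, 119 and 161 CPM in the same 3 libraries. Glial progenitor-like cells held 96.4 CPM in tumour 1 and 97.9 in tumour 2, in 71.5% and 77.2% of cells, and contributed 9579 of 10767 and 6418 of 10334 Ebf1 UMIs. B-like cells contributed 0.381% of Ebf1 UMIs in tumour 1 and 5.57% in tumour 2. In microglia-like cells Ebf1 was at 13.8, 2.03 and 2.64 CPM. The order of classes thus began with B-like cells in each library, and in the whole-library sums Ebf1 of tumour came mostly from glial progenitor-like cells.
Among classes other than B-like with at least 20 cells, Pax5 had its highest level in both tumour libraries in neuron-like cells, at 3.50 and 6.98 CPM. In normal it stood at 8.64 CPM in neuron-like cells, below the 17.6 CPM of T or NK-like cells, where 1 cell held it. These levels were far below those in B-like cells.

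Dntt had a second location. Dendritic-like cells held it in 13 of 43 normal cells (30.2%, 148 CPM) and in 5 of 382 cells of tumour 2 (1.31%, 3.14 CPM), and in none of 38 cells of tumour 1. Of those 13 normal cells, 12 carried at least 2 of Siglech, Ccr9, Klk1 and Cox6a2, which mark plasmacytoid dendritic cells, and all 5 of the tumour 2 cells did. Among all dendritic-like cells with 2 of those markers, Dntt was found in 12 of 29 in normal (41.4%, interval 23.5 to 61.1%) and 5 of 43 in tumour 2 (11.6%, 3.88 to 25.1%). These intervals overlap, and the median depth of the dendritic-like class was 3523 UMIs in normal and 13507 in tumour 2. None of these marker-positive cells held Vpreb1, and 2 of those in tumour 2 held Igll1, which accounts for both Igll1 UMIs of that library. The remaining normal cell with Dntt in this class carried the B precursor set, with 13 UMIs of Vpreb1, 10 of Igll1 and 29 of Vpreb3. The 3 cells with any of the 5 restricted genes in the normal T or NK-like class were all placed in the B-like cluster when the clustering was run at resolution 2.0.

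Vpreb1 had low counts in choroid plexus-like cells of all 3 libraries: 3 of 24 cells in tumour 1 (32.2 CPM), 3 of 71 in tumour 2 (13.4 CPM) and 1 of 30 in normal (18.3 CPM). Igll1 was not read in that class. Vpreb1 overlaps Top3b, a gene on the opposite strand. Whether strand was used in counting is not given in the sources used here, and any part of Top3b reads in these counts was not tested.

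Over 40 sums of class and library, the genes whose level as log2(CPM + 1) followed each member most closely were read from 11290 genes. Vpreb2 was closest to Rag1 (Pearson r = 0.94) and to Dntt (0.90). 1700027J07Rik, a gene with no assigned name, was closest to Rag2 (0.97) and Igll1 (0.92). Spib, a transcription factor of B and dendritic cells, was closest to Vpreb3 (0.94), followed by the light chain gene Iglc3 (0.94). Pou2af1, a coactivator of octamer factors in B cells, was closest to Pax5 (0.93), with Klhl14 next. For Vpreb1 the closest was Capsl (0.82), and for Ebf1 it was Dennd5b (0.78), both less alike than for the other genes. The sums share libraries, depth and, for the restricted genes, a single sum with a high level, so these values are descriptions across sums that are not independent.

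Other genes of the B cell programme were read from lists in the whole-library sums; the 8 genes were chosen for their change, so its size is not set against these lists. Over all 20467 genes tested, 8.13% fell in tumour and 12.7% rose by edgeR's quasi-likelihood test at an adjusted p of 0.05. A count of 1 gene in a list is therefore not read as a result about that list. Of 15 other B-lineage transcription factors, 4 fell in tumour and 1 rose by the same test, with a median log2 change of -1.27 against 0.14 for all genes tested. Spib stood at 0.0569 and 0.487 CPM in the tumour libraries and 26.4 in normal (log2 change -5.99 ± 1.16, edgeR adjusted p = 0.0264), and Pou2af1 at 0.114, 0.707 and 31.2 CPM (-5.64 ± 1.05, edgeR adjusted p = 0.0243). Of 12 genes of pre-B and B cell receptor signalling, 1 fell: Ighm, the heavy chain of the receptor, at 287 CPM in normal, 14.3 in tumour 1 and 44.1 in tumour 2 (-2.70 ± 0.67, edgeR adjusted p = 0.0464). None of 8 interleukin-7 receptor pathway genes passed; Il7r, the receptor chain needed by mouse B precursors, had a log2 change of -2.14 ± 0.57 (edgeR adjusted p = 0.0547) and Socs2 one of -0.88 ± 0.42.
Of 10 genes of end joining and other partners of recombination, 1 rose, Xrcc5 (2.21 ± 0.41, edgeR adjusted p = 0.0242), and none fell. Of 12 mature B cell genes, 2 fell, among them Ms4a1, a surface protein of mature B cells (-4.74 ± 1.01, edgeR adjusted p = 0.0326). The list also holds Cd74, H2-Aa, H2-Ab1 and H2-Eb1, genes of antigen presentation that dendritic cells express too. Cd74 stood at 203 CPM in normal, 124 in tumour 1 and 1349 in tumour 2, and dendritic-like cells made up 1.40%, 0.360% and 4.07% of cells in the same order. Their part in the list was not tested. None of 7 T cell precursor genes passed, with Cd4 at -1.88 ± 0.85 and Cd3e at -1.63 ± 0.91.
Of 5 tested genes of the stroma that feeds B precursors, 2 fell: Cxcl12, the chemokine that holds precursors in marrow, from 205 CPM in normal to 4.85 and 9.15 in tumour (-4.29 ± 0.47, edgeR adjusted p = 0.0118), and Lepr (-2.75 ± 0.65, edgeR adjusted p = 0.0418). Cxcl12 was also among the 10 leading genes of the endothelial-like cluster, which held 4.68% of cells in normal, 0.682% in tumour 1 and 2.32% in tumour 2; its part in the change was not tested. Il7 did not pass the filter. Of the 20 genes of other marrow-type lineages, 16 fell and 1 rose, with a median log2 change of -6.00. The largest changes were those of Prg2 (-13.3 ± 0.43, edgeR adjusted p = 0.00839) and Mcpt8, a basophil protease (-9.87 ± 0.78, edgeR adjusted p = 0.0086). The test rests on 1 residual degree of freedom for each gene, from the tumour pair, and moderates the dispersion of a gene with that of all genes. Its p-values thus rest on the spread between those libraries, shared over genes, and this spread may be technical. The SE printed is the absolute log2 change divided by the square root of the F statistic.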

How the data were processed

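Dissociated brainstem was profiled by single-cell RNA sequencing in 2 tumour libraries and 1 normal library, grouped by their tissue label. The deposited files hold UMI counts per gene and barcode, unnormalized. Per the file headers, the authors used Cell Ranger 6.1.2, and mm10 is the build in the submitters' processing notes; strand handling is not given in the sources used here. Here, barcodes with at least 500 UMIs, 300 genes and at most 15% mitochondrial UMIs were kept and Scrublet doublets removed (scanpy 1.11.5). Counts scaled to 10000 per cell gave 2000 variable genes, the 8 members left out, then 30 components and Leiden clusters at resolution 1.0, named from marker lists. B-like cells were sub-clustered at resolution 0.5, chosen after the data were seen. Shares and counts carry exact 95% intervals (Clopper-Pearson and Poisson), and a count of 0 was read as at most 3 counts. Thinning drew 1000 UMIs per cell. Library sums were tested with edgeR 4.0.16 (filterByExpr, TMM, Benjamini-Hochberg), with DESeq2 1.42.0 as an alternative, and the script was tested on simulated data. Of 32285 features, 32158 matched GENCODE release 21, and all 8 members matched RefSeq promoters. Named genes were the 8 members, the 3 most alike per member and the 2 largest changes per list, some of which are not reported here; alternatives are given in the closing section. The members and lists were chosen with earlier results of these data known.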

Additional observations from a re-analysis of the deposited data

How the results depend on the processing

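Of the alternatives, doublets kept and clustering at resolution 2.0 left the B-like shares and the shares with any of Rag1, Rag2, Dntt, Vpreb1 and Igll1, overall and by stage, within the counting interval of the reported value, but Ebf1 UMIs in normal B-like cells became 70.3% at resolution 2.0 and the normal mature cells 79 in place of 23, with Vpreb3 at 1339 CPM in them in place of 500. Sub-clusters at resolution 1.0 and the clustering with the 8 genes among the variable genes kept those shares within the interval too. The gate of 2 B cell genes gave B-like shares of 8.08%, 25.9% and 12.0% (tumour 1, tumour 2, normal); in normal, any of the 5 genes then fell to 32.4% of B-like, 54.4% of precursor, 6.67% of cycling and 0 of mature cells, and 2 or more of them to 10.3%; cycling cells were then 102, 210 and 30. Thinning to 500 UMIs in place of 1000 gave 31.8% against 40.5% for any of the 5 and 8.07% against 12.6% for 2 or more. The stricter cell filter gave 91.7% of only 12 precursor cells and 0 of 16 mature cells in normal, with 1 and 6 precursor cells in tumour 1 and tumour 2; the gate for stages gave 45.6% and 34.2%. At 2 UMIs, values were 44.1% (precursor), 45.5% (cycling) and, for 2 or more genes, 10.8%. Leaving out the mature cell with all 8 genes, a choice made after seeing the data, gave 0. Library size alone called 1631 genes higher and 3689 lower. DESeq2, no filter, thinned libraries and doublets kept called 2194 to 3255 higher and 1718 to 2207 lower. The sign of the 8 genes' log2 changes was fixed by their choice; without tumour replicate 1 the changes ran from -8.15 (Igll1) to -1.86 (Ebf1) and without tumour replicate 2 from -9.47 (Vpreb3) to -1.80 (Ebf1), with no calls, since no residual degree of freedom is left. The causes of these shifts were not tested. No paired analysis was possible because the groups share only replicate number 1. Only 116 tumour B-like cells, 20 of them in tumour 1, limit every share of 0, and a single normal library gives no replicate error.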
